A study of Mus musculus with 42 samples.

Results

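The 6 mouse germline genes Dazl, Taf7l, Morc1, Mael, Sycp3 and Tfap2c were followed in embryonic stem cells (ESCs) and their derivatives. They were chosen by name, and all 6 were found among 16345 named genes of the table of epiblast-like cell (EpiLC) differentiation and among 16753 genes of the table of embryoid body (EB) differentiation. In the ESC line KH2-ISY1, Flag-tagged ISY1, a protein of the spliceosome, is induced by doxycycline (Dox). The second line carries a knockout of DGCR8, the RNA-binding subunit of the Microprocessor that starts microRNA maturation. Polyadenylated RNA was read in 32 of the 42 libraries of the series, with 1 library for each condition and time. The EpiLC table holds 4 libraries of KH2-ISY1 EpiLCs given Dox (24, 48, 72 and 96 h), 6 of the DGCR8 knockout line (0 h in 2i/LIF, then 6, 24, 48, 72 and 96 h) and 4 of cESCs. The cESCs are EpiLCs of 24 or 48 h, grown with or without Dox, that were put back into 2i/LIF and are labelled as without Dox themselves. The comparison cells are 10 libraries of KH2-ISY1 cells without Dox (0 h in 2i/LIF, then 6, 12, 18, 24, 30, 36, 48, 72 and 96 h). The EB table holds 1 library of serum/LIF cells with Dox and 7 of KH2-ISY1 cells without Dox, namely serum/LIF cells at day 0 and EBs of days 1, 2, 4, 8, 10 and 13. All cells of the first line carry the Dox-inducible transgene. No line without the transgene was given Dox, so Dox and ISY1 cannot be told apart, and the knockout is another line, so line and loss of DGCR8 cannot be told apart.

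Germline genes are kept largely silent outside germ cells. In mouse ESCs a Polycomb complex that contains E2F6 and the E-box binding pair MGA and MAX represses many of them, and the DNA methyltransferases DNMT3A and DNMT3B add methyl groups at their CpG-rich promoters as cells leave the naive state. Tfap2c encodes AP-2gamma, a transcription factor needed to form primordial germ cells that is also present in naive ESCs and trophoblast. Dazl encodes an RNA-binding protein that controls translation in germ cells. Morc1 and Mael act against transposons in male germ cells, Mael in the pathway of PIWI-interacting RNAs (piRNAs). Taf7l encodes a germ cell relative of the general transcription factor subunit TAF7, and Sycp3 a structural protein of the meiotic chromosome axis.

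The promoters of Dazl, Taf7l, Mael and Sycp3 are shown so that the 2 repressor motifs just named can be looked for in them. RefSeq sequence of build GRCm38.p6 held an entry for 4 of the 6 members, and the 250 bases before the start are given 5′ to 3′ on the strand of the gene. Capitals mark the E-box CACGTG, which reads the same on both strands, and the E2F core GCGGGA, searched on both strands and so also written TCCCGC. The 2 motifs share no position in these windows. Dazl lies at chr17:50293621-50293870 (minus strand), Taf7l at chrX:134476491-134476740 (minus strand), Mael at chr1:166238745-166238994 (minus strand) and Sycp3 at chr10:88459337-88459586 (plus strand).
Dazl: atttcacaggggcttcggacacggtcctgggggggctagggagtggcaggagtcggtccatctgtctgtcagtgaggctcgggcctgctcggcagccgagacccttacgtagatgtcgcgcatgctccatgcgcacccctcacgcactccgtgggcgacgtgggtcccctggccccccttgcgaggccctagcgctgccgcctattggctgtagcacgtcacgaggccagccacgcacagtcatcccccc
Taf7l: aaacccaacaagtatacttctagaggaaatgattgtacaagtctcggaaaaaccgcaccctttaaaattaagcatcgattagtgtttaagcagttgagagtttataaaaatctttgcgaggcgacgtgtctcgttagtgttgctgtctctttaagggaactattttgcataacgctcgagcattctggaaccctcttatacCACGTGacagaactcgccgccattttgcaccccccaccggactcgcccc
Mael: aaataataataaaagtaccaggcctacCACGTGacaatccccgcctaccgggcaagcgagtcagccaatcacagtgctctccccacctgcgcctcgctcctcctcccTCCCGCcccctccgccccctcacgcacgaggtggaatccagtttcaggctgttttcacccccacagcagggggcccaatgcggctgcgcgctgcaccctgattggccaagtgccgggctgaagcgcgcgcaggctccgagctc
Sycp3: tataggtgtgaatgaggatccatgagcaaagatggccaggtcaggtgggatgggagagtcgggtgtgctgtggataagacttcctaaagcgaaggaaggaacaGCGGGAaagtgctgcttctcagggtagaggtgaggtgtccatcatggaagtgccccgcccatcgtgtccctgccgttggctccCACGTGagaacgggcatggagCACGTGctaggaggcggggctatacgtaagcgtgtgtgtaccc

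An E-box was read in 3 of these 4 windows, and the E2F core in 2 of them. Sycp3 held E-boxes that begin 64 and 43 bases before the start, and its E2F core begins 147 bases before it. Mael held 1 E-box at 223 bases and 1 E2F core at 143 bases, and Taf7l held 1 E-box at 49 bases. Among all 32851 promoter windows of the same length, 6.02% held the E-box and 16.9% the E2F core. Dazl held neither, which says only that these letters are not in this window. CpG dinucleotides numbered 20 in Dazl, 18 in Mael, 14 in Taf7l and 12 in Sycp3, against a median of 6 over all windows. These are descriptions of sequence, since binding and methylation were not measured.

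Values are normalised reads, that is reads per gene divided by 1 size factor per library, and they can be compared between libraries of a table but not between genes, because they are not per length. Total reads (M, mega-reads) were 5.8 to 38.84 M per library in the EpiLC table and 8.82 to 56.02 M in the EB table. The naive markers Klf4, Tbx3, Esrrb, Zfp42 and Tfcp2l1 went with the labels of the course without Dox. They summed to 24611.3 in 2i/LIF cells without Dox and to 464.2 at 96 h. The later germ cell markers Ddx4 and Dmrt1, 2 of the 4 listed that the EpiLC table holds, summed to 59.8 to 177.9 in Dox EpiLCs, 63.7 to 303.5 in the knockout, 90.3 to 260.8 in cESCs and 35.4 to 185.0 without Dox. Fewer cells with a transcript and less transcript per cell cannot be told apart in such bulk samples.

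During the move from 2i/LIF to EpiLCs without Dox the 6 genes took different courses. Morc1, Dazl and Tfap2c ended far below their start, Mael ended above it, and Dazl went through a peak at 6 h. In a spline fit over time, 5 of the 6 members passed the threshold of an adjusted p of 0.05, 2 with a higher and 3 with a lower fitted end. The same threshold called 50.1% of all 16206 genes tested (25.4% higher, 24.8% lower), so change over this course was common among all genes.

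Dazl had 259.1 normalised reads at 0 h, 1137.5 at 6 h, 698.2 at 12 h, 395.3 at 18 h, 366.4 at 24 h, 469.4 at 30 h, 432.5 at 36 h, 128.3 at 48 h, 40.5 at 72 h and 18.7 at 96 h. The 6 h library was thus the highest of the course and the last 3 libraries were the lowest. The fitted level fell by 4.07 ± 0.59 on the log2 scale between 0 and 96 h (SE, limma, adjusted p = 5.75e-05, log2 of value + 1 here and below). Against the 0 h library, the 6 h library had a ratio of 4.39 (95% interval of counting error 3.88 to 4.98).

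Morc1 went the other way at 6 h. It had 1807.0 normalised reads at 0 h, 801.2 at 6 h, 1225.7 at 12 h, 1479.1 at 18 h, 1460.9 at 24 h, 1522.4 at 30 h, 1308.3 at 36 h, 823.9 at 48 h, 124.0 at 72 h and 26.0 at 96 h. The dip at 6 h was followed by a plateau up to 36 h and then a loss in which the 96 h library held the lowest value. The fitted level fell by 6.10 ± 0.32 in log2 units (adjusted p = 7.86e-07). Without the 96 h library the change was -3.75, which runs from 0 to 72 h only.

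Tfap2c left early and came partly back. It had 148.7 normalised reads at 0 h, 28.0 at 6 h, 15.0 at 12 h, 4.7 at 18 h, 1.8 at 24 h, 1.2 at 30 h, 1.8 at 36 h, 7.1 at 48 h, 10.5 at 72 h and 20.0 at 96 h. The 24 h value stands on 2 reads, so the low point is known only roughly. The fitted level fell by 2.69 ± 0.83 in log2 units (adjusted p = 0.000443). Without the 0 h library the change was -0.75, which runs from 6 to 96 h only.

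Mael had 11.3, 7.7, 6.6, 8.7, 17.3, 25.9, 18.3, 50.4, 68.5 and 31.1 normalised reads at 0, 6, 12, 18, 24, 30, 36, 48, 72 and 96 h. All libraries from 48 h on lay above all those up to 36 h. The fitted level rose by 1.63 ± 0.56 in log2 units (adjusted p = 0.00113), or by 2.51 from 0 to 72 h without the 96 h library. Sycp3 stayed low, between 3.6 at 12 h and 20.0 at 72 h with a median of 7.25, and its fitted 96 h level was 0.44 ± 0.62 above that of 0 h (adjusted p = 0.0376 for any change). The call for Sycp3 was lost without the 12, 18, 24, 30, 72 or 96 h library (adjusted p = 0.0527 to 0.0897). Taf7l lay between 9.9 at 18 h and 42.0 at 72 h and was not called (1.28 ± 0.68, adjusted p = 0.260).

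**Figure D1:**
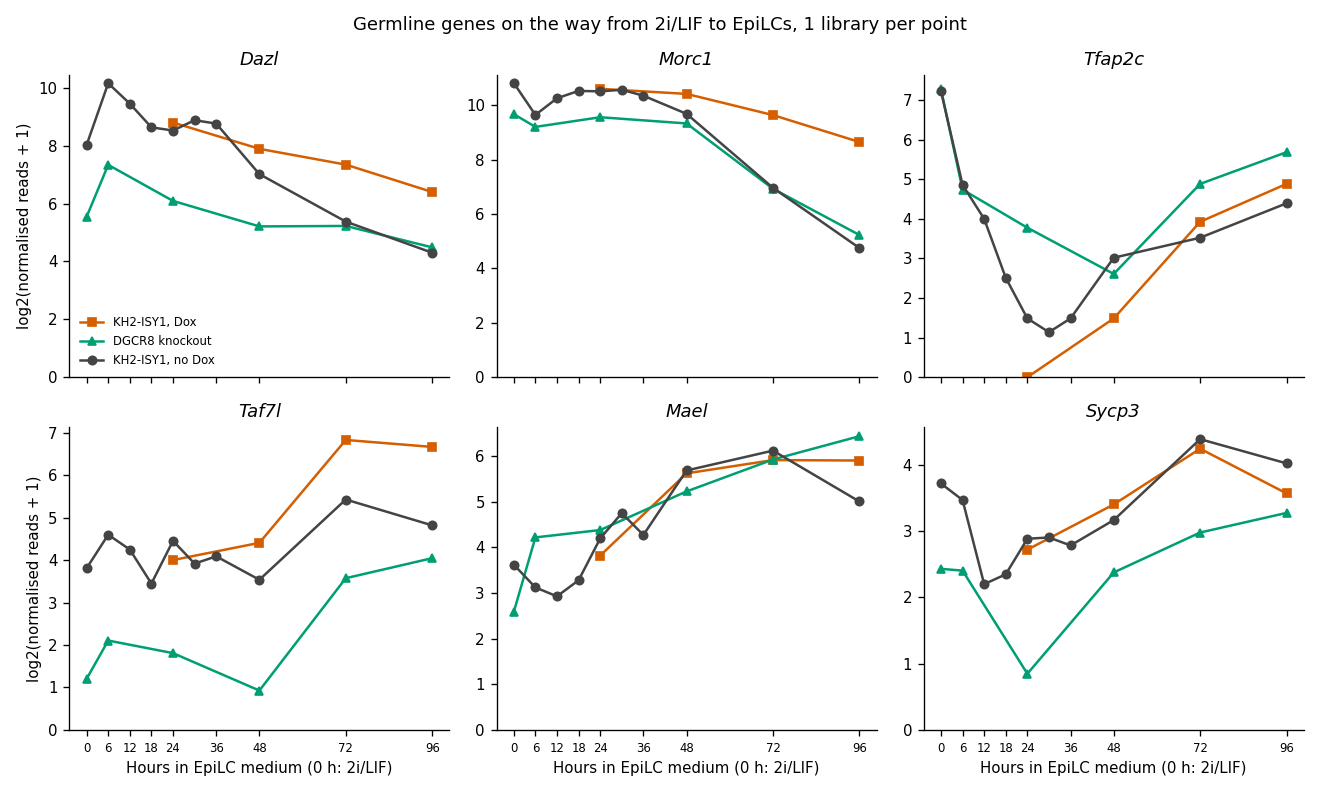
Level of each of the 6 genes, as log2(normalised reads + 1), against hours in EpiLC medium in KH2-ISY1 cells with Dox (squares), in the DGCR8 knockout line (triangles) and in KH2-ISY1 cells without Dox (circles), 1 library per point and no error bars. Dazl peaks at 6 h in both lines (160.5 in the knockout and 1137.5 without Dox), Morc1 and Dazl with Dox lie above the course without Dox at 72 and 96 h, and Taf7l lies lowest in the knockout at every hour the 2 lines share.

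Lists of other germline genes and of their repressors were set beside these courses. Over all genes, 50.1% were called in this fit, 25.4% higher and 24.8% lower. Of 9 primordial germ cell factors, 1 was called higher and 6 lower, among them Kit, a receptor of germ cell precursors (-3.46 ± 0.31, adjusted p = 1.06e-05), and Ifitm1, a surface protein of early germ cells (-2.90 ± 0.37, adjusted p = 0.000108). Of 11 piRNA pathway genes measured out of 14, 4 were called higher and 4 lower, and Tex19.1, which guards germ cells against transposons, had its fitted end 2.49 ± 0.68 below its start (adjusted p = 0.000546). The piRNA pathway list also holds Slc25a31, a mitochondrial carrier gene and not a piRNA factor, which is counted in it here and below. Of 15 meiosis genes tested out of 19, 3 were higher and 6 lower. Of 13 repressors, 3 were higher and 5 lower, with Dnmt3a at 4.33 ± 0.86 (adjusted p = 0.000207) and Dnmt3b at 3.92 ± 0.41 (adjusted p = 5.03e-05) on the log2 scale. The median fitted change was -1.12 over the 6 members, -1.78 over the primordial germ cell factors and -0.02 over all genes.

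From 0 to 6 h Dazl and Tfap2c moved alike in both lines, and the other members did not show a shared 2-fold step. Dazl had 160.5 normalised reads at 6 h against 45.6 at 0 h in the knockout line, a ratio of 3.52 (95% interval of counting error 2.89 to 4.30), beside the ratio of 4.39 without Dox. Tfap2c had 25.7 at 6 h against 153.8 at 0 h in the knockout line, a ratio of 0.167 (0.124 to 0.222), and a ratio of 0.188 (0.133 to 0.261) without Dox. Mael was at 17.6 at 6 h against 5.0 at 0 h in the knockout line (ratio 3.52, 1.91 to 6.79), while its ratio without Dox was 0.685 (0.292 to 1.60). The ratio of Morc1 was 0.721 (0.673 to 0.772) in the knockout line and 0.443 (0.414 to 0.475) without Dox. Of 16031 genes, 4.46% were at least 2-fold higher and 3.54% at least 2-fold lower in both lines, without a test. Dazl belonged to the first set and Tfap2c to the second, and both were singled out after their values were seen. Tex19.1 was at 151.0 at 6 h against 73.8 at 0 h in the knockout line and at 2315.5 against 498.3 without Dox.

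Dox was asked about in 4 pairs of EpiLC libraries. The difference grew with hour for Morc1, Dazl and Taf7l, which at 96 h were 15.5, 4.45 and 3.69 times as high with Dox as without it. Isy1 itself had 3038.3, 912.3, 1108.6 and 707.7 normalised reads at 24, 48, 72 and 96 h with Dox, against 422.7, 396.5, 557.5 and 417.9 without Dox. Averaged over the 4 pairs, Isy1 was 1.45 ± 0.31 higher in log2 units (adjusted p = 0.0542), with the Dox library higher in 4 of 4 pairs and the gap smallest at 96 h. The Isy1 difference itself was called as shrinking, by -2.03 ± 0.34 from 24 to 96 h (limma slope, adjusted p = 0.0190). Like every call of that slope test, it was lost without limma's intensity trend.

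Morc1 had 1558.9, 1370.2, 798.1 and 401.4 normalised reads at 24, 48, 72 and 96 h with Dox, against 1460.9, 823.9, 124.0 and 26.0 without Dox. The Dox library was the higher one in 4 of 4 pairs, with a ratio of 1.07 (95% interval of counting error 0.996 to 1.14) at 24 h, 1.66 (1.53 to 1.81) at 48 h, 6.44 (5.64 to 7.37) at 72 h and 15.5 (11.9 to 20.4) at 96 h. Dazl had 443.9, 236.0, 161.4 and 83.3 with Dox, against 366.4, 128.3, 40.5 and 18.7 without Dox. It too was higher with Dox in 4 of 4 pairs, with a ratio of 1.21 (1.06 to 1.39) at 24 h and 4.45 (3.19 to 6.33) at 96 h. Taf7l had 15.0, 20.2, 112.7 and 100.5 with Dox, against 20.9, 10.6, 42.0 and 27.2 without Dox. It was higher with Dox in 3 of 4 pairs, and the 72 and 96 h Dox libraries held the highest Taf7l values of the EpiLC table.

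For Mael the Dox values of 13.1, 48.2, 59.2 and 58.8 stood against 17.3, 50.4, 68.5 and 31.1 without Dox, so the groups overlapped and only the 96 h pair lay apart (ratio 1.89, 1.41 to 2.56). Sycp3 had 5.6, 9.6, 18.0 and 10.9 with Dox, against 6.4, 8.0, 20.0 and 15.3 without Dox. Tfap2c had 0.0, 1.8, 14.2 and 28.5 with Dox, against 1.8, 7.1, 10.5 and 20.0 without Dox, and the first of these Dox values is a library with no read of the gene, which allows up to 3 reads. For both genes the groups overlapped.

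Averaged over the 4 hours, 0 of the 6 members were called (limma), while 2.83% of the 16117 genes tested were. At an unadjusted p under 0.05 there were 3 members, and edgeR on the 2 pairs with recovered reads called 0. The mean log2 differences were 1.85 ± 0.56 for Morc1 (adjusted p = 0.112), 1.30 ± 0.30 for Dazl (adjusted p = 0.0622) and 0.92 ± 0.36 for Taf7l (adjusted p = 0.183). Those of Mael (0.06 ± 0.24), Sycp3 (-0.13 ± 0.24) and Tfap2c (-0.53 ± 0.44) were near or below 0. Without the 24 h pair Morc1 (adjusted p = 0.0449), Dazl (0.0255) and Taf7l (0.0300) passed, and without the 72 h pair their adjusted p was 0.426, 0.315 and 0.556. The mean of Morc1 was 1.17 without the 96 h pair and that of Taf7l 0.61, against 2.44 and 1.37 without the 24 h pair.

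The difference itself changed with hour. Of the 6 members 3 were called in that test, all towards higher with Dox, against 2.84% of all genes in either direction and 1.72% in this one. The fitted log2 difference of Morc1 was 3.68 at 96 h against -0.26 at 24 h, a change of 3.94 ± 0.39 (adjusted p = 0.00294). That of Dazl was 2.22 at 96 h against 0.24 at 24 h, a change of 1.98 ± 0.33 (adjusted p = 0.0184). That of Taf7l was 1.97 at 96 h against -0.31 at 24 h, a change of 2.28 ± 0.47 (adjusted p = 0.0377). The values of 2.32 ± 0.85 for Tfap2c (adjusted p = 0.195), 1.05 ± 0.50 for Mael (adjusted p = 0.324) and -0.32 ± 0.66 for Sycp3 (adjusted p = 0.859) did not pass. Without limma's intensity trend no gene passed, with 2455 genes at an unadjusted p under 0.05 (adjusted p of Morc1 0.157, Dazl 0.162, Taf7l 0.157). The call of Taf7l was also lost without the 24, 72 or 96 h pair (adjusted p = 0.192, 0.0714 and 0.117).

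**Figure D2:**
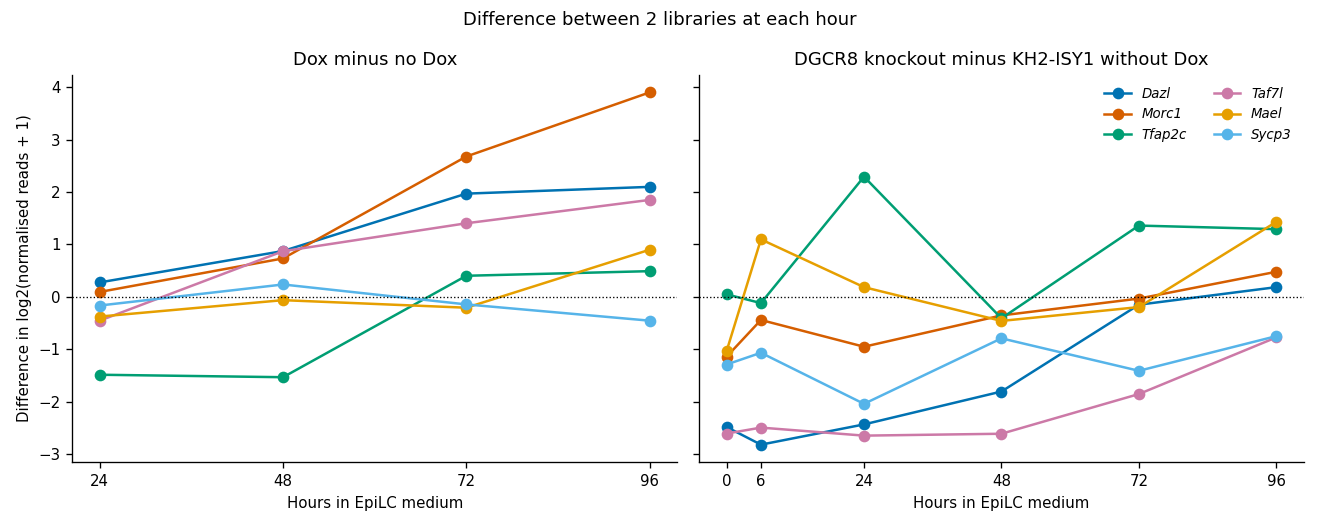
Difference in log2(normalised reads + 1) between 2 libraries of the same hour, for each of the 6 genes, as Dox minus no Dox (left) and as DGCR8 knockout minus KH2-ISY1 without Dox (right), against hours in EpiLC medium, with the dotted line at 0. On the left Morc1 climbs to 3.90, Dazl to 2.10 and Taf7l to 1.85 at 96 h, and on the right Taf7l and Sycp3 lie below 0 at all 6 hours.

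Markers of other states moved in the same libraries. The 5 naive markers, all present, summed to 9969.1, 5731.7, 3568.5 and 2224.9 at 24, 48, 72 and 96 h with Dox, against 7377.3, 2068.2, 825.5 and 464.2 without Dox. The two-cell-like markers Zscan4c, Zscan4d, Zscan4f and Tcstv1, 4 of the 5 listed, summed to 6.5, 64.9, 386.5 and 299.2 with Dox, against 4.5, 21.3, 97.0 and 65.2 without Dox. The primordial germ cell markers Prdm1, Prdm14, Dppa3 and Nanos3 summed to 127.0, 71.0, 193.7 and 166.1 with Dox, against 110.0, 66.4, 97.0 and 56.2 without Dox. The trophoblast markers (7 of 8 in the table) summed to 111.1, 57.0, 67.1 and 79.2 with Dox, against 55.4, 34.5, 59.5 and 59.2 without. The pluripotency markers Pou5f1, Sox2 and Nanog summed to 14458.0, 10713.2, 9835.5 and 8973.3 with Dox, against 13732.6, 9920.4, 8251.5 and 7055.3 without. The formative list was lower with Dox at each hour, and the fibroblast list only from 48 h on. The formative markers summed to 915.0, 1362.3, 1794.3 and 1767.5 with Dox, against 1512.8, 2670.8, 2929.5 and 2602.6 without Dox. The fibroblast markers, 3 of 6 in the table, summed to 56.1, 28.1, 38.9 and 26.2 with Dox, against 43.6, 42.5, 147.0 and 154.5 without Dox. No marker of these lists was at 0 in all libraries of either group, and the part of such cells in the germline gene differences was not tested.

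Over all genes, 1.72% had a Dox minus no Dox difference called as rising with hour. Among the other germline genes, 3 of 11 piRNA pathway genes had such a rise, and none had a fall. They were Tex19.1 (a change of 2.16 ± 0.34 from 24 to 96 h, adjusted p = 0.0145), the PIWI protein gene Piwil2 (1.57 ± 0.28, adjusted p = 0.0211) and the Tudor domain gene Tdrd12 (1.94 ± 0.40, adjusted p = 0.0359). Piwil2 had 190.7, 219.3, 263.7 and 189.6 normalised reads with Dox, against 171.8, 137.2, 112.0 and 57.0 without Dox. Dppa3, a marker of primordial germ cells, was the only call among 9 germ cell factors (2.86 ± 0.63, adjusted p = 0.0472). Hormad1, a protein of the meiotic axis, was the only call among 15 meiosis genes (2.10 ± 0.47, adjusted p = 0.0498). Of the 13 repressors, Dnmt3a alone was called by hour (1.5 ± 0.20, adjusted p = 0.00811). Its mean was 758.67 with Dox against 921.5 without Dox, so it was lower with Dox on average while its difference moved upward with hour. Averaged over the 4 pairs, Dnmt3b, at 463.6, 578.1, 744.6 and 704.1 with Dox against 675.5, 1069.0, 1395.0 and 936.2 without Dox, fell by 0.69 ± 0.10 in log2 units (adjusted p = 0.0350). The meiosis gene Syce2 fell by 0.72 ± 0.12 (adjusted p = 0.0371) in the same average. Both of these averaged calls were lost without the intensity trend, without the hour block and without the 48 h or the 72 h pair, where no gene passed.

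In serum/LIF cells, where each group is 1 library and no test is possible, Isy1 had 5095.71 normalised reads with Dox against 327.95 without Dox. Morc1 stood out among the members there, at 304.76 with Dox against 145.45 without Dox, a ratio of 2.10 (95% interval of counting error 1.90 to 2.31). It was the only member past 2-fold, a size reached by 1.18% of 16036 genes upward and 8.2% downward. Dazl was at 75.95 with Dox against 55.91 without Dox (ratio 1.36, 1.15 to 1.61), and Tfap2c at 88.10 against 75.68 (ratio 1.16, 1.00 to 1.35). Taf7l was at 32.62 with Dox against 43.18 without Dox (ratio 0.755, 0.602 to 0.946), Mael at 54.76 against 70.91 (ratio 0.772, 0.648 to 0.919) and Sycp3 at 22.62 against 23.64 (ratio 0.957, 0.717 to 1.28).

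The DGCR8 knockout line was compared with KH2-ISY1 cells without Dox at 6 shared hours. Taf7l, Sycp3 and Dazl were lower in the knockout, and Morc1, Mael and Tfap2c were not called. Dgcr8 had 43.4, 43.3, 41.8, 42.1, 44.5 and 36.8 normalised reads at 0, 6, 24, 48, 72 and 96 h in the knockout, against 96.5, 231.0, 138.2, 75.2, 151.0 and 79.1 without Dox. It fell by 1.48 ± 0.20 in log2 units (adjusted p = 0.000703) with no overlap between the groups. Which stretch of the gene was removed is not given in the sources used here.

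Taf7l had 1.3, 3.3, 2.5, 0.9, 10.9 and 15.5 normalised reads at 0, 6, 24, 48, 72 and 96 h in the knockout, against 13.0, 23.2, 20.9, 10.6, 42.0 and 27.2 without Dox. Up to 48 h the knockout libraries held 2 to 7 reads of the gene each, so these ratios are wide, for example 0.096 at 0 h (0.023 to 0.301). Taf7l was lower in the knockout in 6 of 6 pairs and fell by 2.16 ± 0.29 in log2 units (adjusted p = 0.000632). Sycp3 had 4.4, 4.3, 0.8, 4.2, 6.9 and 8.7 in the knockout, against 12.2, 10.1, 6.4, 8.0, 20.0 and 15.3 without Dox. Up to 48 h these values stand on 2 to 14 reads in the knockout and 7 to 17 without Dox, and the 24 h ratio of 0.133 has a wide interval (0.013 to 0.696). Sycp3 was lower in 6 of 6 pairs as well and fell by 1.22 ± 0.25 (adjusted p = 0.0043).

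Dazl had 45.6, 160.5, 67.1, 36.0, 36.4 and 21.4 normalised reads in the knockout, against 259.1, 1137.5, 366.4, 128.3, 40.5 and 18.7 without Dox. It was lower in the first 5 pairs, with a ratio of 0.176 (0.143 to 0.215) at 0 h and 0.141 (0.125 to 0.158) at 6 h, and the lines met at 72 and 96 h. Dazl fell by 1.58 ± 0.40 on average (adjusted p = 0.0118, or 0.213 without hour as a block). The narrowing with hour was not called, with a fitted difference of -0.27 at 96 h against -3.21 at 0 h (adjusted p = 0.0868). In that test 0.523% of all genes and 0 members were called, with 2 members at an unadjusted p under 0.05.

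Morc1 had 818.1, 590.0, 755.3, 644.4, 121.2 and 36.6 normalised reads in the knockout, against 1807.0, 801.2, 1460.9, 823.9, 124.0 and 26.0 without Dox. The mean difference was -0.41 ± 0.19 (adjusted p = 0.118), and it passed without the 96 h pair (-0.58, adjusted p = 0.0210). Mael had 5.0, 17.6, 19.8, 36.4, 59.7 and 85.5 in the knockout, against 11.3, 7.7, 17.3, 50.4, 68.5 and 31.1 without Dox, with no common direction (0.17 ± 0.32, adjusted p = 0.687). Tfap2c had 153.8, 25.7, 12.7, 5.1, 28.5 and 50.4 in the knockout, against 148.7, 28.0, 1.8, 7.1, 10.5 and 20.0 without Dox (0.74 ± 0.35, adjusted p = 0.118). At 0 h its ratio between the lines was 1.03 (0.867 to 1.24), an interval that includes 1.

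In all, 3 of 6 members were called lower in the knockout and none higher, where 42.4% of 16267 genes were called and 24.3% were called lower. A count near that share is not a result about the members as a group. With libraries rescaled by median ratios the share of higher genes among all calls was 53.4%, against 42.6% as deposited, and the same 3 members were called. The two-cell-like markers summed to 0.0, 0.0, 0.0, 3.7, 173.4 and 295.1 in the knockout, against 0.9, 3.0, 4.5, 21.3, 97.0 and 65.2 without Dox, so they were lower in the knockout up to 48 h and higher after it. The naive markers summed to 32121.6, 19846.2, 13248.1, 5182.2, 2231.6 and 1485.4 in the knockout, against 24611.3, 13057.2, 7377.3, 2068.2, 825.5 and 464.2 without Dox, and were higher in the knockout at all 6 hours. The part of these states in the member differences was not tested.

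The other lists were split in the knockout. Over all genes, 42.4% were called and 24.3% were called lower. The share called was 33.3% of primordial germ cell factors, 45.5% of piRNA pathway genes, 53.3% of meiosis genes and 46.2% of repressors. Counts near the share of all genes are not results about the lists. Of 9 primordial germ cell factors 3 were called higher and none lower, namely Prdm14 (2.74 ± 0.45, adjusted p = 0.00155), Sall4 (1.10 ± 0.18, adjusted p = 0.00158) and Nanos3 (1.81 ± 0.36, adjusted p = 0.0037). The primordial germ cell markers summed to 1352.4 at 0 h and 203.6 at 96 h in the knockout, against 798.3 and 56.2 without Dox. Both lines had their highest sum in 2i/LIF. Of 11 piRNA pathway genes 2 were higher and 3 lower, with Piwil2 at 1.27 ± 0.19 (adjusted p = 0.00114) and Tex19.1 at -2.38 ± 0.40 (adjusted p = 0.00172). Of 15 meiosis genes 3 were higher and 5 lower, with Hormad2 at -2.06 ± 0.31 (adjusted p = 0.00106) and Tex11 at 1.17 ± 0.20 (adjusted p = 0.00199). Of 13 repressors 5 were higher and 1 lower, with Max at 0.44 ± 0.11 (adjusted p = 0.0113) and the histone methyltransferase gene Setdb1 at 0.43 ± 0.10 (adjusted p = 0.00944).

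Within the knockout's own course 3 of 6 members were called, against 25.1% of 16106 genes. Where the 0 or 96 h library was left out, the changes given run between the first and last hours kept. Mael rose by 3.56 ± 0.39 in log2 units (adjusted p = 0.00301, 2.36 without the 0 h library) and was higher at each later hour. Morc1 fell by 3.82 ± 0.53 (adjusted p = 0.00359), a call lost without the 96 h library (-1.97, adjusted p = 0.115). Tfap2c changed over the course (-1.65 ± 0.55 between the ends, adjusted p = 0.00649), and without the 0 h library its fitted change turned to 0.96 (adjusted p = 0.0158), since the gene was lowest at 48 h. Dazl (-1.67 ± 0.61, adjusted p = 0.0918), Taf7l (2.31 ± 0.84, adjusted p = 0.110) and Sycp3 (adjusted p = 0.144) were not called. Without the 0 h library Dazl passed (-2.67, adjusted p = 0.00167), and Taf7l passed without the 0, 6 or 48 h library (adjusted p = 0.0313 to 0.0362). The change of Dazl was -1.07 without the 6 h library and -1.05 without the 96 h library, that of Taf7l was 1.29 without the 96 h library, and that of Sycp3 was between 0.30 and 1.45.

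Cells returned to 2i/LIF were compared with the EpiLCs they came from. Tfap2c was far higher in cESCs and Mael lower, each with no overlap between the groups. Such separation was not counted over all genes, of which 18.4% were called in this comparison. Tfap2c had 108.8 normalised reads in the cESCs from 24 h Dox EpiLCs and 197.3 in those from 48 h Dox EpiLCs, and 167.5 and 132.7 in those from 24 and 48 h EpiLCs without Dox. The EpiLCs of origin had 0.0 and 1.8 with Dox and 1.8 and 7.1 without Dox. Tfap2c rose by 5.72 ± 0.45 in log2 units (adjusted p = 0.000208) in 4 of 4 pairs, and the cESC values bracketed the 148.7 of the 2i/LIF library at 0 h.

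Mael had 1.8 and 7.2 normalised reads in cESCs from 24 and 48 h Dox EpiLCs and 8.3 and 3.6 in those from EpiLCs without Dox, against 13.1 and 48.2 in the Dox EpiLCs and 17.3 and 50.4 in the EpiLCs without Dox. The cESC values stand on 2 to 10 reads. Mael fell by 2.34 ± 0.44 (adjusted p = 0.00994), lower in 4 of 4 pairs, and the call was lost without the 48 h Dox pair (adjusted p = 0.0606). Dazl had 133.3 and 99.1 in cESCs from 24 and 48 h Dox EpiLCs and 43.3 and 145.5 in those without Dox history, against 443.9 and 236.0 in the Dox EpiLCs and 366.4 and 128.3 in the EpiLCs without Dox. It was lower in 3 of 4 pairs and passed narrowly (-1.46 ± 0.43, adjusted p = 0.0483). That call was lost without low-value filtering (adjusted p = 0.0548), with median-ratio scaling (0.0535), with edgeR (0.0609), without the intensity trend (0.120) and without any pair but the 48 h pair without Dox (0.0807 to 0.156).

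Morc1 (-0.43 ± 0.27, adjusted p = 0.276), Taf7l (-0.61 ± 0.41, adjusted p = 0.313) and Sycp3 (0.58 ± 0.43, adjusted p = 0.363) were not called. Their cESC values ran over 571.7 to 1226.3, 3.5 to 27.0 and 6.4 to 25.8 normalised reads. All 4 cESC values of Dazl and of Morc1 lay under those of the 2i/LIF library at 0 h, 259.1 and 1807.0, although both are cultures in 2i/LIF. Thus 1 member was called higher and 2 lower, where 18.4% of 16075 genes were called, 5.62% higher and 12.8% lower. The median of all genes was -0.14 in this comparison and -0.02 after median-ratio scaling, which also put the higher share of all calls at 43.9% against 30.5%.

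**Figure D3:**
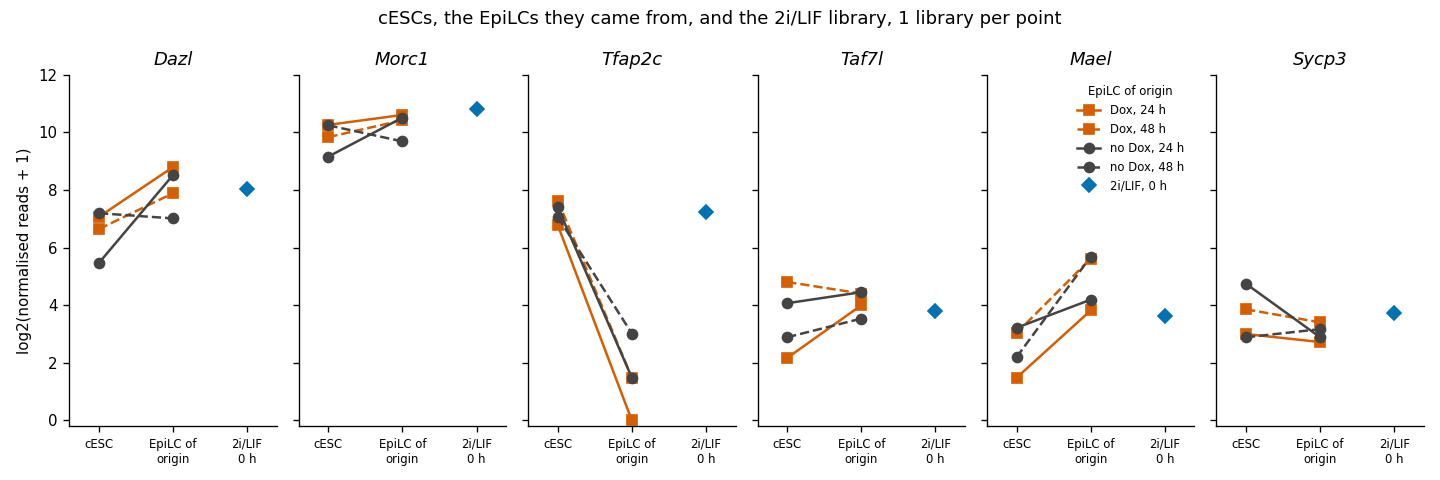
Level of each of the 6 genes, as log2(normalised reads + 1), in cESCs, in the EpiLCs they came from and in the 2i/LIF library at 0 h (diamond), with lines joining each cESC library to its origin (squares: Dox, circles: no Dox, solid: 24 h, dashed: 48 h), 1 library per point. All 4 Tfap2c lines drop steeply towards the EpiLC side (108.8 to 197.3 in cESCs against 0.0 to 7.1), while those of Mael climb (1.8 to 8.3 in cESCs against 13.1 to 50.4).

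Of 9 primordial germ cell factors 6 were called higher in cESCs and none lower, among them Dppa3 (4.99 ± 0.43, adjusted p = 0.0003), Ifitm1 (3.07 ± 0.24, adjusted p = 0.000223) and Kit (2.84 ± 0.29, adjusted p = 0.00075). In cESCs the primordial germ cell markers Prdm1, Prdm14, Dppa3 and Nanos3 summed to 709.6 to 1203.6. The 2i/LIF library without Dox at 0 h had a sum of 798.3, so these markers were also high in 2i/LIF cells. Of 13 repressors 5 were lower and none higher, led by Dnmt3b (-3.36 ± 0.23, adjusted p = 0.000174) and Dnmt3a (-3.30 ± 0.26, adjusted p = 0.000223). Over all genes, 5.62% were called higher and 12.8% lower in this comparison. Of the 11 genes on the piRNA pathway list, 2 were called, both lower. They were Piwil2 (-2.01 ± 0.23, adjusted p = 0.00124) and Slc25a31 (-1.27 ± 0.37, adjusted p = 0.0468), which encodes a mitochondrial ADP/ATP carrier and not a piRNA factor. Of 15 meiosis genes 2 were higher and 2 lower, with Sycp1 at 1.41 ± 0.23 (adjusted p = 0.00573) and Tex11 at -2.51 ± 0.29 (adjusted p = 0.00136). Trophoblast is a cell type in which Tfap2c is also active, and 7 of its 8 markers were in the table. They summed to 90.3 and 274.8 in cESCs from 24 and 48 h Dox EpiLCs, against 111.1 and 57.0 in those EpiLCs. They summed to 322.4 and 114.4 in cESCs from 24 and 48 h EpiLCs without Dox, against 55.4 and 34.5 in those EpiLCs. Only the cESCs from 24 h Dox EpiLCs lay below their origin. The part of trophoblast cells in the Tfap2c values was not tested.

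Between cESCs with and without a Dox history no gene was called (0 of 15823, or 0%, with limma and with edgeR). At an unadjusted p under 0.05 limma had 345 genes and edgeR 355. None of the 6 members was among the 345. The log2 differences were 0.53 ± 0.54 for Dazl, 0.35 ± 0.37 for Morc1, 0.01 ± 0.91 for Taf7l, -0.45 ± 0.75 for Mael, -0.39 ± 0.71 for Sycp3 and -0.02 ± 0.33 for Tfap2c. With 2 libraries a side, the 95% interval for Dazl ran from -0.77 to 1.82 and that for Tfap2c from -0.82 to 0.77, so differences anywhere within these bounds are compatible with the data.

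In the EB course Dazl, Taf7l and Mael were highest at day 2, Sycp3 was highest at day 8, and Tfap2c was highest at the start. Dazl had 55.91, 249.71, 263.11, 88.13, 16.47, 11.67 and 10.00 normalised reads at days 0, 1, 2, 4, 8, 10 and 13. The library of day 1 had a ratio of 4.47 to that of day 0 (95% interval of counting error 3.92 to 5.11), and the fitted level fell by 3.74 ± 0.81 on the log2 scale over the course (adjusted p = 0.00992). Mael had 70.91, 79.05, 206.89, 101.88, 21.76, 7.22 and 11.67. It fell by 3.40 ± 0.77 (adjusted p = 0.0136) from day 0 to day 13, after a day 2 library with a ratio of 2.92 to day 0 (2.56 to 3.33). Morc1 had 145.45, 155.52, 108.67, 54.38, 39.41, 21.67 and 20.00. It declined at every step after day 1 and fell by 3.20 ± 0.42 (adjusted p = 0.00433).

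Taf7l had 43.18, 166.10, 263.11, 38.13, 27.65, 16.67 and 15.56 normalised reads at days 0, 1, 2, 4, 8, 10 and 13. Its day 2 value equals that of Dazl because both genes had 1184 reads there. It narrowly missed the threshold in limma (-2.58 ± 0.92, adjusted p = 0.0519) and passed in edgeR (adjusted p = 0.0373). Sycp3 had 23.64, 40.86, 49.11, 81.25, 95.29, 31.67 and 17.22, a rise and return that was not called (adjusted p = 0.0810). Tfap2c had 75.68, 20.38, 10.67, 21.88, 13.53, 14.44 and 18.89, and it too missed in limma (-1.73 ± 0.57, adjusted p = 0.0549) and passed in edgeR (adjusted p = 0.0215). The day 0 library alone was high, and without it the adjusted p of Tfap2c was 0.955.

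In limma 3 of 6 members were called, all lower at the end, where 26.9% of 16753 genes were called and 9.61% were lower. The median of all genes was 0.12, and that of the members was -2.89. Without a test, Dazl and Taf7l were at least 2-fold higher at day 1 than at day 0, as were 5.71% of 16114 genes, and Tfap2c was at least 2-fold lower, as were 14.2%. Markers of other cells changed along this course. The two-cell-like markers, 5 of 5 in this table, summed to 17.74, 96.66, 174.21, 966.26, 139.99, 30.55 and 4.44 at days 0, 1, 2, 4, 8, 10 and 13, and the later germ cell markers, 3 of 4, to 358.41, 633.34, 815.77, 252.51, 90.59, 46.12 and 38.33. The fibroblast markers, 4 of 6, lay between 21.43 and 328.14 up to day 10 and were at 12002.22 at day 13. The part of such cells in the members' values was not tested.

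**Figure D4:**
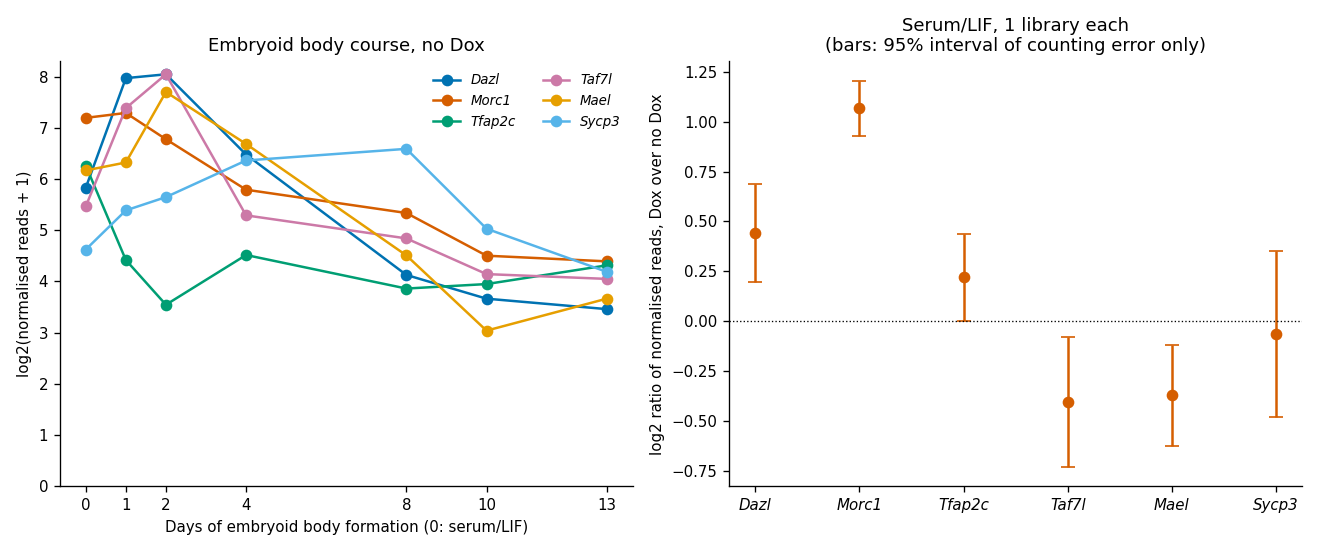
Left: level of each of the 6 genes, as log2(normalised reads + 1), against day of embryoid body formation without Dox, 1 library per point; levels of different genes are not per length and are not to be compared. Right: log2 ratio of normalised reads, Dox over no Dox, in serum/LIF cells, 1 library each, with bars for the 95% interval of counting error only. Dazl and Taf7l both reach 263.11 at day 2, Sycp3 peaks at 95.29 at day 8, and Morc1 has the highest Dox ratio, 2.10.

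Of the wider germline lists, more genes were called lower than higher in EBs. Over all genes, 26.9% were called and 9.61% were called lower. Of 18 meiosis genes measured, 11 were called lower and none higher, among them Stra8, the gatekeeper of meiotic entry, at 67.27, 89.33, 331.11, 69.38, 2.35, 1.67 and 0.56 normalised reads over the 7 days (-6.67 ± 1.08, adjusted p = 0.00519). Of 11 piRNA pathway genes 5 were lower and 1 higher, with Piwil2 at -6.26 ± 0.82 (adjusted p = 0.00374), Ddx4, a germ cell RNA helicase, at -3.77 ± 0.62 (adjusted p = 0.00586), and Tdrkh at 3.20 ± 0.48 (adjusted p = 0.00688). Of 9 primordial germ cell factors 3 were lower and none higher. Of 13 repressors 2 were higher and 4 lower, with E2f6 at 1.68 ± 0.26 (adjusted p = 0.00861) and Uhrf1, which guides maintenance of DNA methylation, at -1.25 ± 0.22 (adjusted p = 0.006).

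Across the 24 libraries of the EpiLC table the members did not form 1 block. Pearson's r of log2 levels was highest between Dazl and Morc1 (0.753) and between Taf7l and Sycp3 (0.668), and lowest between Morc1 and Mael (-0.54). These are descriptions over libraries that share courses and lines. Among 15221 genes, the levels most like those of Dazl were those of Cmklr1 (0.931), 4930550L24Rik (0.92) and Sod1 (0.917), and the most like Morc1 were Gtsf1l (0.959), Triml1 (0.929) and Ssr2 (0.925). For Mael they were Metrnl (0.943), Tcfl5 (0.938) and Phyhipl (0.92), and for Tfap2c Letmd1 (0.896), Elf3 (0.895) and Ccdc68 (0.893). Taf7l was most like Tmem5 (0.897), Ufm1 (0.886) and Mycbp2 (0.883). Sycp3 was most like Gm5453 (0.893), Tpt1-ps3 (0.888) and Tpt1 (0.876), of which the second is by its name a pseudogene of the third, so that reads may be shared between these 2.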

How the data were processed

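PolyA RNA was sequenced from Trizol extracts with a stranded TruSeq kit, per the labels' protocols. The submitters' processing notes name Bowtie, without a version, plus 2 builds, GRCm38 and mm9, whose use is not explained. The counter and annotation are not given in the sources used here. The deposited values are signal: gene reads that the authors divided by 1 size factor per library, as the values themselves show. Divisors of at most 2 decimals returned whole reads for 100% of values in all 32 polyA libraries within rounding, whose error reached 0.352 reads, and the count test used the 24 libraries in which it was small enough. In the other 8 (no Dox 96 h, Dox 72 and 96 h, and the knockout except 48 h) whole values at low levels could come from rounding alone (up to 70.4% of them), so read numbers and counting intervals there rest on the inferred divisor. The row without a gene name (at most 0.0059% of reads) was left out, and spreadsheet dates replaced 20 and 22 gene names. The 10 small RNA libraries were not used here, and the 2 polyA tables were scaled separately and tested apart.

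Genes with a mean of at least 1 were tested as log2(value + 1) with limma 3.58.1 in R 4.3.3 (intensity trend, two-sided, Benjamini-Hochberg over all genes, threshold 0.05). The averaged Dox and knockout fits, the EpiLC course without Dox, the EB course and cESCs against EpiLCs were also run on simulated counts. The differences by hour, the knockout course and cESCs by Dox history were not. Pairs had hour or origin as a block, differences by hour a slope on the square root of hour, and courses natural splines of the square root of time (3 degrees of freedom, 2 for the knockout and EBs). With 1 library per condition, spread over hours stands in for replicate spread. Ratios of 2 libraries have 95% Clopper-Pearson intervals, which cover counting error only, and an absent count allows up to 3 reads. Alternatives were a pseudocount of 5, no filter, median-ratio scaling, no intensity trend, no block, edgeR 4.0.16 quasi-likelihood tests on recovered reads, and leaving out each library or pair. Those for differences by hour were chosen after seeing the data. Where the first or last library of a course was left out, its fitted change runs between the first and last libraries kept. The members and lists were chosen with earlier results of these data known. Named genes are the members, the 3 genes most like each (mean of at least 5), up to 3 called genes with the smallest p per list and comparison, and Isy1 and Dgcr8.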

Additional observations from a re-analysis of the deposited data

Results flagged for a closer look

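The results for Morc1, Taf7l and Dazl under Dox were singled out because the Dox difference was not the same at all hours in a test of the difference itself (limma slope, adjusted over all genes). The log2 difference between Dox and no Dox EpiLCs changed by 3.94 for Morc1, by 2.28 for Taf7l and by 1.98 for Dazl between 24 and 96 h, towards higher with Dox. All 3 calls were lost without limma's intensity trend. In 24 sets that were searched for a value far from the others, 0 were found. These sets were the differences of a member within pairs (4 or 6 per comparison) and its levels in the 4 cESC libraries. The EpiLC, knockout and EB courses were not searched in this way.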

How the results depend on the processing

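No paired analysis by replicate number was possible because each condition and time has 1 library; hour and origin served as blocks. Over 611 alternatives for single genes, 549 were rated the same, 22 lost the call, 17 gained it and 23 turned sign. The same means that direction and side of the threshold were kept. In serum/LIF cells, which had no test, it means a value within the counting interval. Of 244 alternatives for 21 called results (those of members, and Dgcr8 in the knockout), 221 kept the call, 22 lost it and 1 turned (Tfap2c in the knockout course without the 0 h library, 0.96). Causes were not tested.

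For Dox in EpiLCs 456 genes were called, against 0 without the intensity trend and 0 without the hour block in limma (3306 and 1276 at an unadjusted p under 0.05), and 109 with edgeR on the 24 and 48 h pairs. Leaving out a pair gave 1122 without 24 h, 0 without 48 h, 0 without 72 h (3210 and 1924 unadjusted) and 66 without 96 h (members 0 to 3). For its change by hour 457 were called, against 0 without the trend (members 0) and 400 to 1142 leaving out a pair (1142 without 24 h and 959 without 48 h; members 2 to 3). For the knockout 6899 were called, against 3487 without the hour block; its change by hour called 85, against 16 without the trend and 5 to 59 leaving out a pair. Leaving out a library gave 1542 to 4996 genes and 2 to 5 members in the knockout course, 1919 to 5847 genes and 3 to 5 members in EBs (1919 without day 10, 2121 without day 13, 2640 without day 2; 5 members with edgeR), and 1236 to 3028 genes and 1 to 3 members for cESCs against EpiLCs (2960 in all, 1878 without the trend). cESCs by Dox history gave 1 gene with hour of origin as a block, and serum/LIF cells 816 genes past 2-fold with a pseudocount of 5, against 1504.

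Signs turned only for uncalled values and the Tfap2c value above. For Dox, Mael was -0.18 and Sycp3 0.070 with edgeR, and Mael ranged from -0.22 to 0.21 leaving out a pair. Per square root of hour, Sycp3 ranged from -0.24 to 0.015 with Dox and from -0.00046 to 0.060 in the knockout, where Mael ranged from -0.018 to 0.18. Leaving out a pair or library, Mael in the knockout ranged from -0.082 to 0.41, Sycp3 in EBs from -0.97 to 1.18 and Tfap2c in the knockout course from -2.95 to 0.96. By Dox history Taf7l was -0.070 with median-ratio scaling, and the ranges were -0.34 to 1.39 (Dazl), -0.20 to 0.89 (Morc1), -1.31 to 1.33 (Taf7l), -1.22 to 0.33 (Mael), -1.32 to 0.54 (Sycp3) and -0.45 to 0.40 (Tfap2c). The edgeR test of the knockout was not run, since 1 of its 6 pairs met the bar for the count test. Low reads limit Tfap2c at 24 to 36 h, Taf7l and Sycp3 in the knockout and Mael in cESCs.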
